A study of Mus musculus with 11 samples.

Results

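Integrins are paired alpha and beta chains on the cell surface that hold a cell to matrix, vessel wall or another cell. DNA methylation was described here across 10 mouse genes that encode integrin chains of blood cells: Itga2b, Itga4, Itga5, Itga6, Itgal, Itgam, Itgb1, Itgb2, Itgb3 and Itgb7. For each gene, all C positions of CpG sites with at least 10 reads were taken from 1000 bp before to 1000 bp after its span in GRCm38, and levels were formed in fixed 1000-bp tiles. This gave 803 C positions listed in at least 1 of 11 libraries, of which 640 were listed in all 6 LSK libraries, out of 1403302 such positions in the genome. Of the tiles, 50 of 107074 tested in LSK belonged to these genes.

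The libraries were made by enhanced reduced representation bisulfite sequencing, in which DNA cut by MspI at CCGG is converted with bisulfite, so that methylated cytosines read as C and unmethylated ones as T. The level is the percent of reads with C among reads with C or T. All mice were of the C57BL/6 strain, carried a floxed Dnmt3a gene and received 5 poly(I:C) injections, and the series' design text gives an age of 12 months. The series concerns Dnmt3a, a DNA methyltransferase, in myeloid overgrowth and in the homing of stem and progenitor cells.

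The control groups had no Cre (3 LSK libraries, 1326, 1330 and 1331, and 2 GMP libraries, 346 and 349). The knockout groups carried the Mx1-Cre transgene (3 LSK libraries, 1327, 1333 and 1334, and 2 GMP libraries, 178 and 179). Mx1-Cre is switched on by interferon, which poly(I:C) induces, and it acts in blood cells and in other tissues that respond to interferon, so it is not restricted to 1 cell type. LSK are lineage-negative, Sca1-positive and cKit-positive bone marrow cells, the fraction with the stem cells. GMP are lineage-negative, Sca1-negative, cKit-positive, CD34-positive and FcgR-positive cells, the granulocyte and macrophage progenitors. Library 352, from GMP, has a title and a genotype field that disagree about Cre and entered no comparison.

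The alpha4, alpha5 and alpha6 chains pair with the beta1 chain and bind VCAM-1, fibronectin and laminin, and they help to hold stem cells in bone marrow. The alphaL and alphaM chains pair with the beta2 chain on leukocytes, and the alphaIIb chain pairs with beta3 on platelets and megakaryocytes. CpG-rich gene starts are usually unmethylated whether or not a gene is active, whereas gene bodies are mostly methylated apart from regulatory stretches.

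Coverage summed over C positions was 157.4 to 181.1 M reads per LSK library and 95.4 to 109.7 M per GMP library. The median position had 85 to 103 reads in LSK and 50 to 59 in GMP. The Dnmt3a gene was checked first. Of 5 C positions at chr12:3903653-3904031 that every control library listed, the LSK knockouts listed 0 of 5, a segment that was found by its missing positions. The GMP libraries labelled knockout, 178 and 179, still listed 4 and 5 of them, so this check did not match their label, and every GMP direction is given between libraries as labelled. LSK libraries 1326 and 1327 listed 1470 and 1422 Y-chromosome positions the other 4 LSK libraries listed 211 to 229, and the 2 GMP controls listed 1226 and 1314. Knockout and control LSK each had 1 library with many, whereas both GMP controls and only 1 of 3 LSK controls had many. LSK knockout 1333 listed 129024 positions found in no other LSK library. The labels do not say that libraries came from separate animals, so each p-value speaks only of how these libraries vary. A level from a sorted population can fall through fewer methylated copies in each cell or through another mix of cells, and these cannot be told apart.

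By their listed positions the 10 genes fell into 3 patterns in control LSK cells. Itgam and Itgb2 were methylated in all 3 and in 5 of 6 of their tested tiles, with gene-window levels of 94.2% ± 1.6 and 86.1% ± 0.76 (SD, n = 3). The remaining Itgb2 tile, at chr10:77537001, was low, with 9.76%, 10.2% and 7.33% in the controls, so Itgb2 also held a low stretch. Itga4 and Itgb1 were almost unmethylated at their 22 and 114 positions, at 0.218% ± 0.093 and 0.921% ± 0.11. Those positions lie almost all around the gene starts, so these levels do not describe the gene bodies. The Itgb1 body tile described below was methylated. In each of the other 6 genes an unmethylated stretch stood beside methylated tiles, and Itga2b stood at 41.0% ± 1.0, Itgal at 30.3% ± 2.6, Itgb7 at 23.6% ± 5.0, Itgb3 at 21.5% ± 1.3, Itga6 at 18.1% ± 1.9 and Itga5 at 8.72% ± 0.34. In this order the libraries of Itgal, Itgb7 and Itgb3 overlapped with a neighbour, and so did those of Itga6 and Itgb3, while the other neighbouring pairs did not overlap. A window's level reflects which CpG sites MspI fragments reach in each gene, so the order says nothing of expression.

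**Figure D1:**
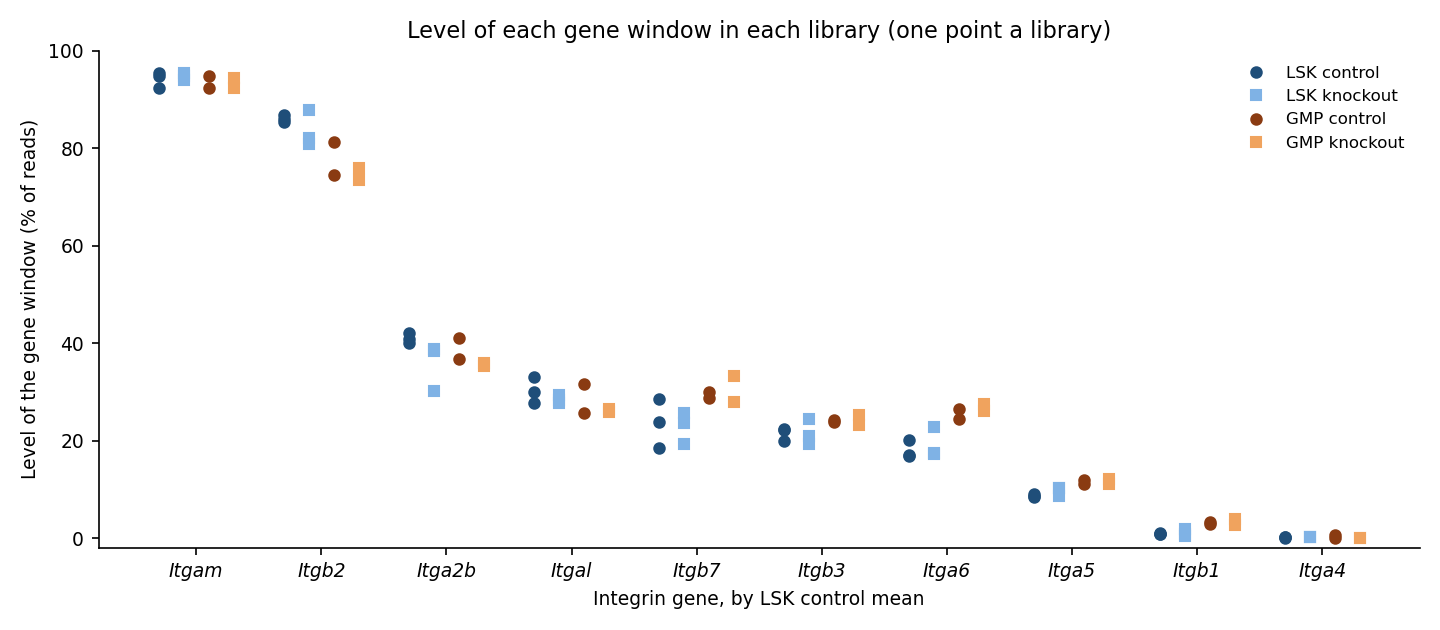
Each point is the methylation level (percent of reads) of a gene window, the gene span plus 1000 bp on each side, in 1 library, with genes ordered by their LSK control mean and groups by colour. Itgam lies near 94% and Itga4 near 0% in every group, and Itgb2 lies lower in both GMP groups, as labelled, than in the LSK controls.

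The 3 gene starts with listed positions are shown because those positions carried almost no methylation in any group. Each is the 300-base RefSeq window of GRCm38.p6 from 250 bases before to 50 bases after the annotated start, 5′ to 3′ on the gene's strand. All CpG sites are in capitals, also those without a listed position. A window was found for 6 of the 10 genes, and the windows of Itga5, Itgam and Itgb7 had no position listed in all 10 assigned libraries.
Itga2b, chr11:102469834-102470133, minus strand: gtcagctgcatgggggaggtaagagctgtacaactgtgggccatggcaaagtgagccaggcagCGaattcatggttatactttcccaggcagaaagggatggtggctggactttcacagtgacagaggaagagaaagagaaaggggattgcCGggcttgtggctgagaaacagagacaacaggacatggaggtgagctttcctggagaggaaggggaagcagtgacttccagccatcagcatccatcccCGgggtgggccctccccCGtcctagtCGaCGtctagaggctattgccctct
Itga4, chr2:79255176-79255475, plus strand: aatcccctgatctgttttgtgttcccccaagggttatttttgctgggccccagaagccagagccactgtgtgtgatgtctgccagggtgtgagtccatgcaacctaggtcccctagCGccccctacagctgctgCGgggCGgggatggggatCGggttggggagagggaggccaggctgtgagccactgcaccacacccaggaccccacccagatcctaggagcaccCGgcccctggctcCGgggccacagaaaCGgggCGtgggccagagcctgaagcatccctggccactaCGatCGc
Itgb1, chr8:128685404-128685703, plus strand: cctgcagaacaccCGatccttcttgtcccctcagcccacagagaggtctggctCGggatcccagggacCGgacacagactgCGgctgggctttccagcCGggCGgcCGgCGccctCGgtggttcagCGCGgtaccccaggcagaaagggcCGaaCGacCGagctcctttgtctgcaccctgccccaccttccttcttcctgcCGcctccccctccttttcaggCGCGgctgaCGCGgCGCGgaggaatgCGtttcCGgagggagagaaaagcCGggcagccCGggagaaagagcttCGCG

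The Itgb1 window held 27 CpG sites and 6 CCGG sites, the Itga4 window 10 and 2, and the Itga2b window 6 and 2. The median over 32851 promoter windows was 7 CpG sites, and 52.8% of them held at least 1 CCGG, a motif that reads the same on both strands. At the Itgb1 start, 18 C positions gave 0.0774% ± 0.063 in control LSK and 0.279% ± 0.26 in knockout LSK (SD, n = 3 each). At the Itga4 start, 3 C positions gave 0.731% ± 0.64 in control LSK and 0.271% ± 0.28 in knockout LSK. At the Itga2b start, 6 C positions gave 1.57% ± 0.94 and 0.882% ± 0.26, with the highest single library, control 1331, at 2.64%. In the GMP libraries the means of these starts lay between 0.0240% and 0.594%. The groups overlapped at all 3 starts in LSK, and a fall could not be seen at levels this near 0.

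Over all tested tiles of the 10 genes, 2 of 50 fell in knockout LSK and 0 rose, with either dispersion prior described here. The test was a quasi-binomial model of methylated and unmethylated reads, with the dispersion moderated by limma and Benjamini-Hochberg adjustment over all tiles, and a call needed an adjusted p under 0.05 and a difference of at least 20 percentage points. Over the genome 0.871% of tiles were called lower and 0.0028% higher, and with a prior fitted only on tiles at levels of 5 to 95%, named the intermediate-level prior, 0.832% were called lower. The 2 tiles lay in Itga2b and Itga6. Among tiles at 20 to 80% in the control GMP libraries, which did not enter the LSK comparison, 2 of 8 integrin tiles were called lower beside 4.55% of 13911 such tiles in the genome.

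The integrin tiles that differed most stood at intermediate control levels, which themselves enter the difference. Of the 50 tiles, 15 stood under 10% in control LSK, 8 between 10% and 80% and 27 above 80%, and in the genome 24.7% were under 10% and 58.5% above 80%. The 15 lowest tiles changed by -1.98 to 0.31 points in knockout LSK, with a median of 0.0016. The 27 highest changed by -5.12 to 3.79 points, with a median of -0.996. The 8 in between changed by -26.9 to 2.15 points, with a median of -5.58, and both called tiles are among them. The median over the 50 tiles was -0.742 points and over all 107074 tiles -0.373, and 7 of 50 (14%) had an unadjusted p under 0.05, beside 13.1% in the genome. Knockout and control libraries did not overlap, with knockout lower, in 9 of 50 tiles (15% in the genome) and, with knockout higher, in 1 of 50 (3.38%).

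**Figure D2:**
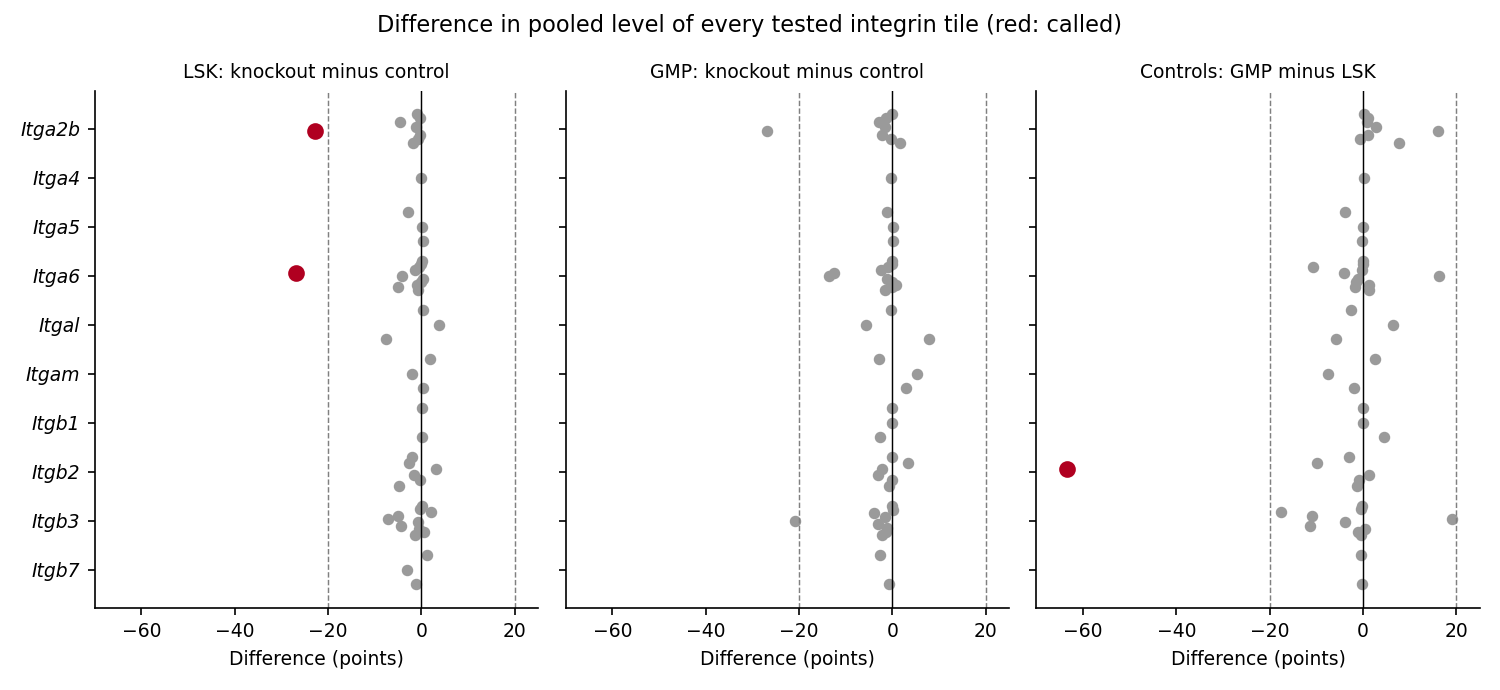
Each point is a tested 1000-bp tile, placed by its difference in pooled level in percentage points, for LSK knockout minus control, GMP labelled knockout minus control, and control GMP minus control LSK. Red points are called, dashed lines mark 20 points, and the called tiles are those of Itga2b (-22.8) and Itga6 (-26.9) in LSK and Itgb2 (-63.5) between cell types.

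Itga2b encodes alphaIIb (CD41), the platelet fibrinogen receptor chain that also marks megakaryocyte progenitors and some stem cells. Its called tile, chr11:102466001-102467000, holds 7 C positions, 102466259 to 102466337, that lie 3546 to 3624 bases downstream of the start. Levels were 43.5%, 48.0% and 46.7% in control LSK 1326, 1330 and 1331 and 24.9%, 19.9% and 24.9% in knockout LSK 1327, 1333 and 1334. The libraries of the 2 groups did not overlap. The pooled level fell by 22.8 points, from a mean of 46.1% ± 2.3 to 23.2% ± 2.8 (SD, n = 3), with an adjusted p of 0.00248 from the moderated quasi-binomial test. The mean depth was 162 reads per position. On a tile grid shifted by 500 bp the same positions shared a tile with the 8 positions beyond them, and the difference was -15.2 points (adjusted p = 0.00952), under the 20 points required. Without moderation of the dispersion the adjusted p was 0.214, as part of a test that called 0 tiles in the genome.

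The 7 positions are covered by reads of both strands. Within each library the 4 forward-strand positions had nearly equal read numbers (225 to 230 in 1326), and so did the 3 reverse-strand positions (104 to 105), so positions of 1 strand share their reads. The forward strand stood at 39.9%, 39.3% and 39.9% in the controls and at 20.9%, 24.0% and 22.0% in the knockouts. The reverse strand stood at 54.1%, 65.0% and 58.3% in the controls and at 30.7%, 14.5% and 28.9% in the knockouts. Both strands were lower in every knockout library than in every control library. All 7 positions had a lower mean in knockout LSK, and at 6 of them the groups did not overlap. The position at 102466337 was the highest in control LSK, at 84.7% ± 6.55, and the least even in knockout LSK, with 62.6% in 1327, 8.43% in 1333 and 53.8% in 1334.

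The tile lies beside a stretch of low levels inside the gene. Between 2242 and 2684 bases downstream of the start, 27 C positions had means of at most 3.80% in control LSK and 5.30% in control GMP, and 1 more, 102467640, had 9.93% in control LSK and 12.4% in knockout LSK. On the side toward the start, 9 positions between 1229 and 1610 bases downstream had means of 83.8% to 97.1% in control LSK. Beyond the called tile, 7 of 8 positions between 4028 and 4370 bases downstream stood above 80%. The tiles on either side of the called one differed by -0.276 points in knockout LSK over the 30 positions toward the start, most of them near 0, and by -1.24 points over the 8 positions beyond. Within the first of these, position 102467678 had 78.1% in control LSK and 55.3% in knockout LSK without overlap. The pooled difference was -19.7 points, under the 25 required of a position, and the adjusted p was 0.986 in the quasi-binomial test of single positions. In GMP this position had 79.0% in control and 61.2% in the libraries labelled knockout, with overlap (73.5% to 84.4% and 48.0% to 74.4%). At chr11:102460001-102461000, 16 positions stood at 94.1% ± 0.95 in control and 89.6% ± 0.57 in knockout LSK without overlap, a difference of -4.51 points with an adjusted p of 0.0472 in the same test, which is under the 20 points required.

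**Figure D3:**
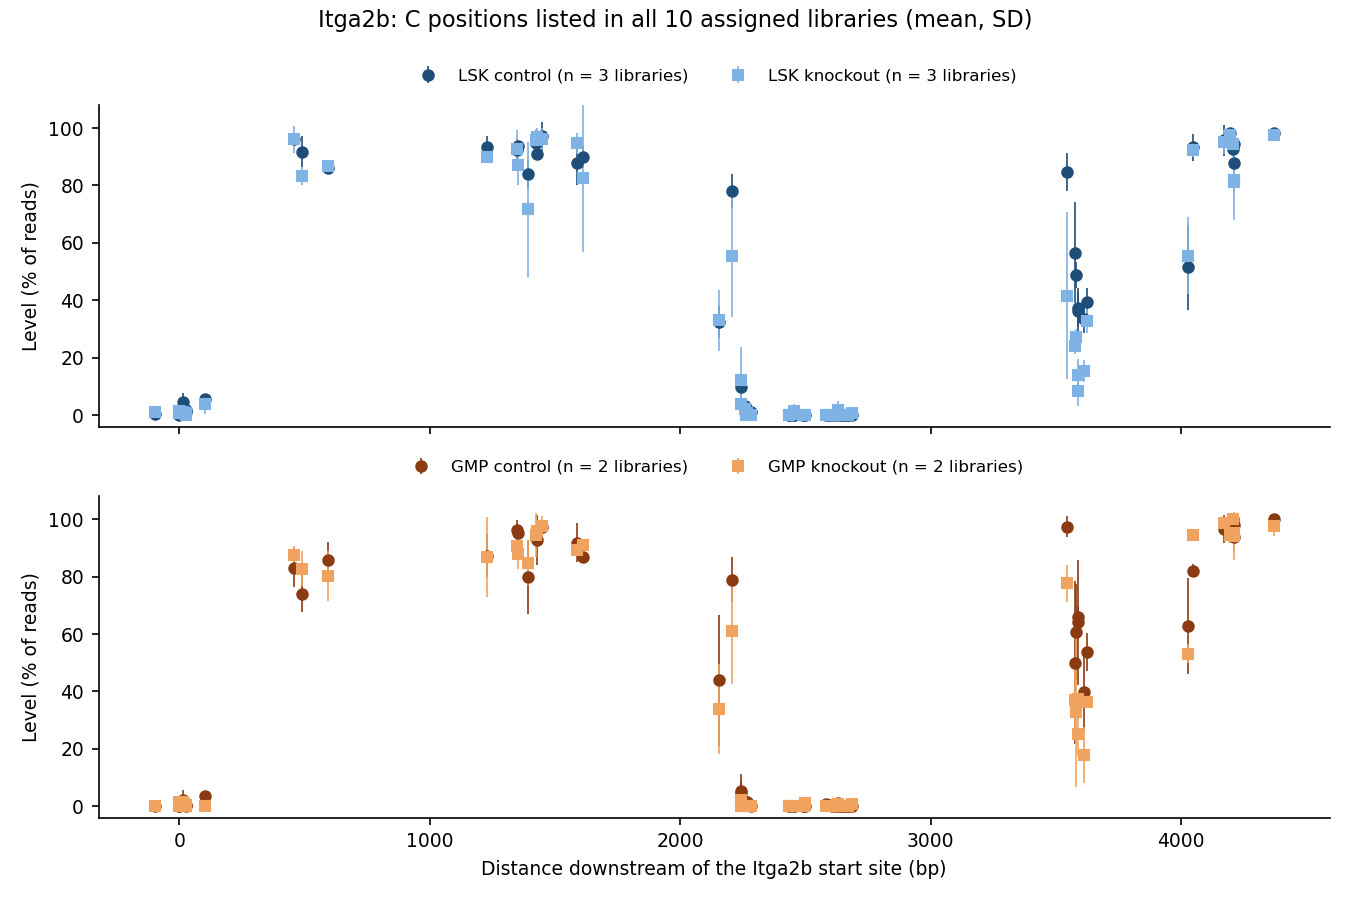
Mean level and SD (percent of reads) of each C position of Itga2b listed in all 10 assigned libraries, against distance downstream of the start site in bp, with LSK above and GMP below. The positions at 3546 to 3624 bp have lower means in both groups labelled knockout than in their controls, between a stretch of low levels at 2242 to 2684 bp and 8 positions from 4028 bp on, of which 7 stand above 80% in control LSK.

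In GMP the same Itga2b tile had 54.8% and 65.1% in controls 346 and 349, and 28.6% and 41.4% in the libraries labelled knockout, 178 and 179. These groups did not overlap, and the pooled difference was -26.8 points. The adjusted p was 0.567, in a test that called 0% of GMP tiles in the genome and 0 of 49 integrin tiles, with 2 of 49 at an unadjusted p under 0.05 (8.71% in the genome) and 0 called by limma on logit levels. With the intermediate-level prior 0.248% of GMP tiles were called lower and 0.0271% higher, 1 of 49 and 0 of 49 integrin tiles among them, and this tile had an adjusted p of 0.0326. With 1 library left out at a time, which leaves 1 library in a group, the difference ran from -33.4 to -19.6 points. With that prior the call was lost without 178, 346 or 349 and kept only without 179. The LSK and GMP differences differed by -4.06 points, with an adjusted p of 1 in the test of the product of cell type and genotype. That test called 0 of 47 integrin tiles (0.003% in the genome), with 3 of 47 at an unadjusted p under 0.05 (5.69% in the genome). Library 352 stood at 22.0%. Among tiles at 20 to 80% in control LSK, 1 of 7 integrin tiles was called lower with the intermediate-level prior, beside 1.49% of 13856 in the genome, and the groups did not overlap, with the libraries labelled knockout lower, in 13 of 49 tiles (25.9% in the genome) and, with them higher, in 2 of 49 (11.3%).

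In the control libraries Itga2b was higher in GMP than in LSK at the called tile, by 16.1 points without overlap, with an adjusted p of 0.0929. The pooled level of the tile around its start was also higher, at 20.5% in GMP and 12.8% in LSK (adjusted p = 0.0574 in the moderated test). That tile mixes 3 methylated positions 456 to 595 bases downstream with unmethylated ones at the start itself, and its level weighs each by its reads. None of its positions had a higher mean in control GMP. The 3 methylated ones stood at 85.7%, 74.0% and 83.2% in control GMP and at 86.0%, 91.8% and 96.2% in control LSK. So the pooled rise was not a rise at its positions. The LSK controls serve both this comparison and the knockout one, and the GMP controls likewise, so these differences are not independent of each other.

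Itgb3 encodes beta3 (CD61), the partner of alphaIIb. Its 20 and 36 C positions in the 2 tiles around the lower-coordinate end were at 0.421% and 0.503% in control LSK. Of its 10 tested tiles 6 stood above 80%. The tile that moved most in knockout LSK, chr11:104637001-104638000, had 63.5%, 58.1% and 70.5% in the controls and 63.9%, 58.0% and 50.0% in the knockouts. These groups overlapped, and the difference of -7.10 points had an adjusted p of 0.628. In GMP the same 3 positions had 81.5% and 84.4% in the controls and 76.4% and 53.2% in 178 and 179. The GMP difference of -20.9 points had an adjusted p of 0.583, and library 179 was the lowest of these 4. Between the control cell types 4 Itgb3 tiles away from that end were lower in GMP without overlap and this one was higher (19.1 points, adjusted p = 0.137), and none was called.

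Itga6 encodes alpha6 (CD49f), a laminin receptor chain used to mark stem cells. Its tiles at the lower-coordinate end, with 33 and 84 C positions, stood at 0.210% and 0.218% in control LSK. The called tile, chr2:71812001-71813000, lies 25614 bases inside that end and holds 5 C positions at a mean of 54.2 reads. Levels were 57.8%, 59.2% and 57.0% in control LSK 1326, 1330 and 1331 and 34.5%, 25.2% and 33.9% in knockout LSK 1327, 1333 and 1334. The groups did not overlap, and all 5 positions were lower in every knockout library. The pooled level fell by 26.9 points, from 58.0% ± 1.1 to 31.2% ± 5.2 (SD, n = 3), with an adjusted p of 0.0109 in the moderated test. The call needed all 3 controls: without 1326, 1330 or 1331 the adjusted p was 0.0658, 0.0851 and 0.0734, with differences of -26.2 to -27.5 points. In the 4 LSK libraries with few Y-chromosome positions it was 0.0947, and in all 6 with many or few such positions as a block it was 0.0234.

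The Itga6 tile was less clear in GMP. Controls 346 and 349 had 49.3% and 57.4%, library 178 had 19.7% and library 179 had 52.2%. Library 179 lay between the controls, and the difference of -12.5 points had an adjusted p of 0.761. Library 179 also kept all 5 positions of the Dnmt3a segment and 178 kept 4. Library 352, which listed none of that segment, stood at 22.1%. Whether the level of this tile goes with the segment was not tested. The tile chr2:71816001-71817000, its centre 29614 bases inside that end, had 60.6%, 51.9% and 43.9% in control LSK and 53.5%, 53.8% and 40.0% in knockout LSK, which overlapped. In GMP it had 73.7% and 69.8% in the controls and 60.0% and 56.0% in the libraries labelled knockout, with a difference of -13.6 points and an adjusted p of 0.567. The remaining Itga6 tiles with a body position stood above 90% in control LSK apart from 1 at 30.7%, and they changed by -5.06 to 0.273 points.

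**Figure D4:**
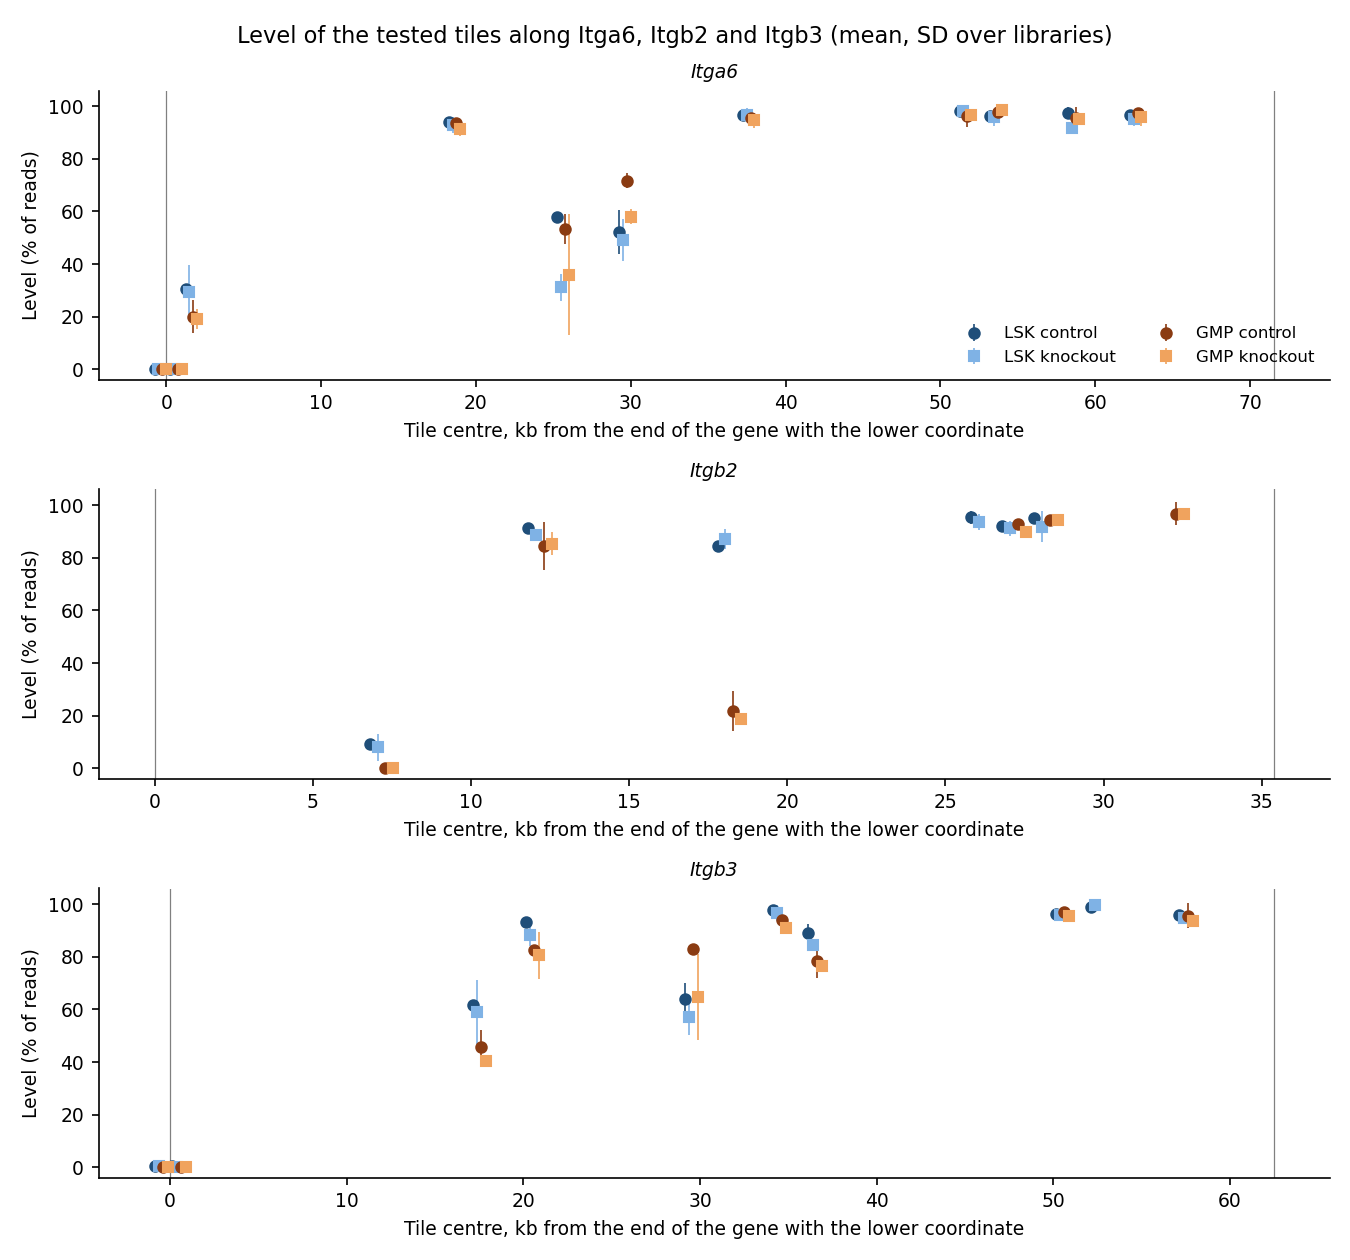
Mean level and SD over libraries (percent of reads) of the tested tiles of Itga6, Itgb2 and Itgb3, by group, against the distance of the tile's centre in kb from the end of the gene with the lower coordinate; grey lines mark the gene's ends. Itga6 is lower in knockout LSK than in control LSK at the tile centred 25614 bp from that end, and Itgb2 is low in both GMP groups at the tile centred 18171 bp from it.

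The beta1 chain (CD29, Itgb1) and its partner alpha4 (CD49d, Itga4) make VLA-4, which binds VCAM-1 in marrow. Itgb1 had 2 tested LSK tiles, with 70 and 42 C positions around its start, and the larger of their differences was 0.191 points, from 0.237% to 0.408% on average. Itga4 had 1 tested tile, with 22 positions around its start. Its level was 0.113%, 0.253% and 0.290% in control LSK and 0.140%, 0.220% and 0.191% in knockout LSK. These values overlapped and the difference was -0.029 points (adjusted p = 0.961 in the moderated test). No LSK tile of the Itga4 body and none of the Itgb1 body reached 3 positions listed in all 6 libraries, so their bodies were not tested there. In Itgb1 1 body tile, chr8:128690001-128691000, had enough positions in the controls of both cell types, at 90.4% in LSK and 94.6% in GMP (adjusted p = 0.452).

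Itga5 encodes alpha5 (CD49e), the fibronectin receptor chain, and Itgb7 encodes beta7, which pairs with alpha4 to bind MAdCAM-1 in gut vessels. Next to the Itga5 start 2 tiles, with 15 and 19 positions, stood at 0.0927% and 0.301% in control LSK. Its body tile, chr15:103357001-103358000, had 95.2%, 94.7% and 98.7% in control LSK and 94.3%, 95.4% and 90.8% in knockout LSK, a difference of -2.86 points (adjusted p = 0.559). The Itgb7 tile chr15:102219001-102220000 had 96.6%, 95.2% and 96.5% in control LSK and 92.9%, 92.6% and 93.3% in knockout LSK. The knockouts lay below the controls there, by 3.19 points with an adjusted p of 0.443, and in the tile chr15:102224001-102225000 they lay below by 1.08 points, at 0.321% beside 1.40% (adjusted p = 0.214).

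The beta2 chain (CD18, Itgb2) forms LFA-1 with alphaL (CD11a, Itgal) and Mac-1 with alphaM (CD11b, Itgam), the leukocyte receptors for ICAM-1 and complement. Itgb2 held the largest difference of the 10 genes, and it was between cell types. The tile chr10:77548001-77549000, with 6 C positions near the middle of the gene, had 85.4%, 82.4% and 85.9% in control LSK and 16.4% and 27.0% in control GMP. The pooled level was 63.5 points lower in GMP, with an adjusted p of 0.000755 in the moderated test. All 6 positions were lower in both GMP controls than in all LSK controls. It was the 1 integrin tile of 50 called lower in this comparison (0.772% of 104839 in the genome, 0.891% with the intermediate-level prior, which also called this 1), and 0 of 50 were called higher (0.113%, or 0.148% with that prior). Leaving out 1 library at a time gave differences of -57.6 to -68.3 points with adjusted p-values of 0.00734 to 0.0267. Among the 3 control libraries with many Y-chromosome positions, 1326, 346 and 349, the difference was -64.3 points with an adjusted p of 0.725, in a test with 1 LSK library that called 0 tiles in the genome.

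The Itgb2 tile was not called between genotypes in either cell type. Knockout LSK 1327, 1333 and 1334 had 91.4%, 86.0% and 84.1%, which overlapped the controls, with a difference of 3.14 points (adjusted p = 0.657). The GMP libraries labelled knockout had 18.0% and 19.6%, inside the range of the GMP controls, with a difference of -2.17 points (adjusted p = 0.893). Library 352 stood at 9.44%. The nearest tiles tested between the control cell types on each side, chr10:77542001-77543000 and chr10:77557001-77558000, stood at 91.5% and 92.0% in control LSK, and at 84.5% and 93.1% in control GMP. The GMP libraries were also the shallower ones, and since the labels name no sequencing run, cell type and run cannot be told apart. Over all 50 tiles, 13 were lower in control GMP without overlap (18.1% in the genome) and 6 higher (14%). An unadjusted p under 0.05 in the moderated test was found for 13 of 50 (13.6% in the genome). The Itgb2 tile that differed most in knockout LSK was another, chr10:77558001-77559000, and it was not called. It had 96.5%, 94.0% and 94.7% in control LSK and 95.3%, 85.0% and 95.2% in knockout LSK. The groups overlapped, with a difference of -4.71 points, and library 1333 was the lowest.

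No tile of Itgal or Itgam was called in any of these comparisons. The largest Itgal difference in knockout LSK was at chr7:127314001-127315000, with 32.0%, 26.5% and 38.5% in the controls and 18.1%, 30.8% and 26.0% in the knockouts. The groups overlapped (-7.54 points, adjusted p = 0.503), and in GMP the direction was the opposite, 7.78 points higher in the libraries labelled knockout (adjusted p = 0.660, interaction adjusted p = 0.874). Around its lower-coordinate end, 18 Itgal positions stood at 3.12% in control LSK and 0.409% in control GMP (adjusted p = 0.148). Itgam had 3 tested tiles, all in its body and all above 93% in control LSK. They changed by -2.04 to 1.74 points in knockout LSK. In control GMP the tile chr7:128106001-128107000 stood at 86.2%, below the 93.8% of control LSK without overlap (adjusted p = 0.200).

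**Figure D5:**
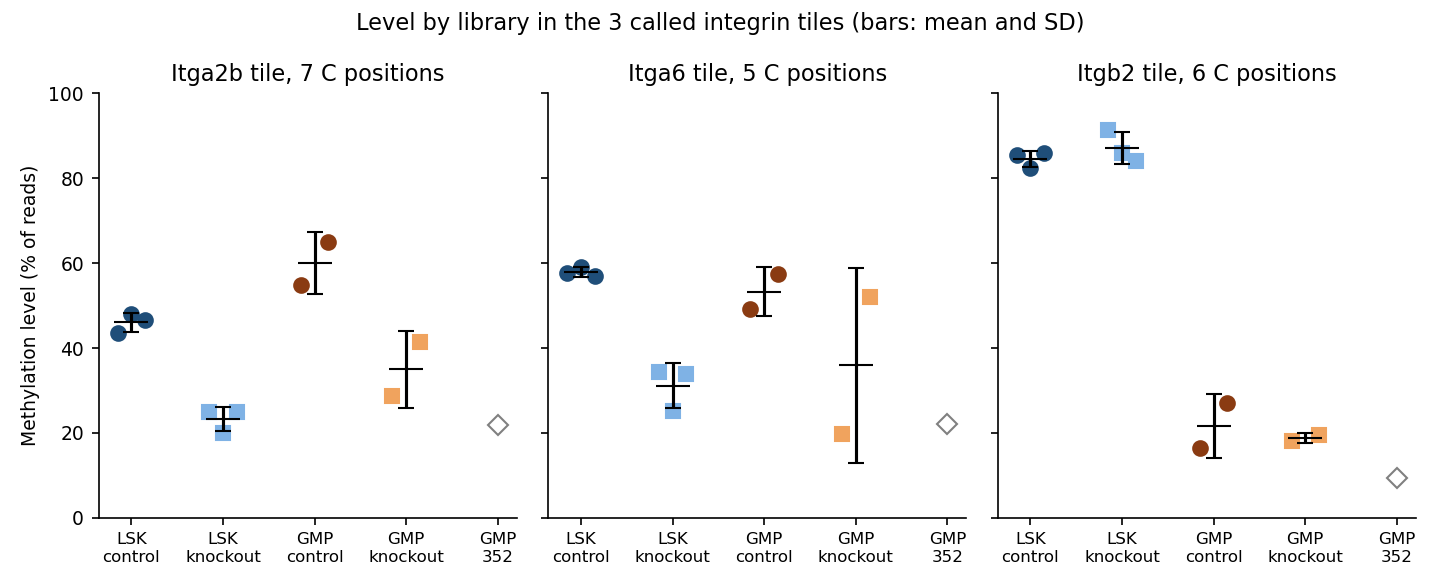
Level (percent of reads) in each library of the 3 called tiles, with the mean and SD of each group as black bars and library 352 as an open diamond. The Itga2b and Itga6 tiles are lower in all 3 knockout LSK libraries than in all 3 controls, and the Itgb2 tile separates the LSK libraries (82.4% to 91.4%) from the assigned GMP libraries (16.4% to 27.0%) and from 352 (9.44%).

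No integrin gene as a whole passed the test, in which a window needed an adjusted p under 0.05 and at least 10 points. In knockout LSK 0 of 10 windows were called, beside 0.362% of 24061 windows called lower in the genome (0.312% with the intermediate-level prior). The limma fit on logit levels called 0 as well, and 0 of 10 had an unadjusted p under 0.05 (9.41% in the genome). The largest window difference was that of Itga2b, with 40.8%, 42.1% and 40.0% in the controls and 38.3%, 30.1% and 38.8% in the knockouts (-5.23 points, adjusted p = 0.560), and library 1333 was the lowest. Between GMP groups as labelled 0 of 10 windows were called (0% in the genome with this test, 0.216% called lower and 0.0291% higher with the intermediate-level prior), and 0 had an unadjusted p under 0.05 (11.1% in the genome). Between the control cell types 0 of 10 were called (0.787% lower and 1.1% higher in the genome, or 0.662% and 0.913% with the intermediate-level prior), with 5 at an unadjusted p under 0.05 (23.7% in the genome). There the pooled level of Itga6 was 7.25 points higher in GMP with an adjusted p of 0.0461 in this test, under the 10 points required. A window pools its reads, so its level also moves with the share of reads at each position. The tiles chr2:71786001-71787000 and chr2:71787001-71788000 were almost unmethylated in all groups. They held 4202 and 11200 of 18975 window reads in LSK control 1326 and 2065 and 6546 of 11930 in GMP control 346. How far read shares enter the window differences, that of Itga2b among them, was not tested.

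Single C positions were tested in LSK with the intermediate-level prior and a threshold of 25 points. Of 640 integrin positions 0 were called, beside 0.141% of positions called lower and 0.00207% higher in the genome, and 22 had an unadjusted p under 0.05 (4.27% in the genome), of which 19 were lower in knockout. How many such positions in the genome were lower was not counted, so this direction has no background here. The smallest adjusted p was 0.0612.

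Other genes of integrin adhesion were read from fixed lists. Of 121 tiles in 16 other integrin genes 0 fell in knockout LSK (0.871% in the genome), with a median difference of -1.24 points. Of 126 tiles of these genes tested between the control cell types 2 were lower in GMP (0.772% in the genome), in Itga9 and Itgb5. In Itga9 the tile at chr9:118633001 stood at 49.5% in LSK and 27.4% in GMP (adjusted p = 0.0108), and in Itgb5 the tile at chr16:33885001 stood at 57.9% and 27.1% (adjusted p = 0.0341). Neither was called in knockout LSK, where the Itga9 tile stood at 33.7% ± 2.4 beside 49.5% ± 2.8 in control LSK (-15.9 points, adjusted p = 0.0198, under the 20 points required) and the Itgb5 tile differed by -11.1 points (adjusted p = 0.237). Of 246 tiles in 30 genes of integrin activators and adaptors 5 fell in knockout LSK, in 3 genes, beside the 0.871% of tiles called lower in the genome. Pxn, the focal adhesion adaptor paxillin, held 3 of them, and its tile at chr5:115544001 fell from 40.0% ± 3.2 to 10.2% ± 2.4 (adjusted p = 0.000741). The others lay in Rap1gap, which turns Rap1 off (-24.9 points, adjusted p = 0.0313), and Skap1, an adaptor of integrin activation in T cells (-20.4 points, adjusted p = 0.0108). Between the control cell types 5 of 245 such tiles were lower in GMP (0.772% in the genome), 3 of them in Pxn, and 1 of these, chr5:115510001, also fell in knockout LSK. Rasgrp2 (-23.0 points, adjusted p = 0.00823 in the moderated test) and Cytip (-36.5 points, adjusted p = 0.00422) held the others, and neither was called in knockout LSK. In 18 of 20 integrin ligand genes 0 of 104 tiles were called in knockout LSK, beside 0.871% called lower in the genome. Between GMP groups as labelled 0 of 107 were called (0% in the genome). Between the control cell types 0 of 103 were called (0.772% lower and 0.113% higher in the genome).

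Methylation gives no expression, so the levels at the genes of the sort gates cannot check the gates and are given as levels only. Ly6a, the gene of Sca1, whose gate separates LSK from GMP, had no tested tile. Of 10 tiles in Kit, Cd34 and Fcgr3 0 were called in LSK knockouts or between the control cell types. In the genome 0.871% and 0.772% of tiles were called lower in these comparisons. The Cd34 tile stood at 0.194% in control LSK and the Fcgr3 tiles at 2.13% and 93.4%.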

How the data were processed

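The authors deposited, per the file headers, for every C position the coverage (a count of reads) and 2 percent values, for reads with C and for reads with T. Bismark and the builds mm10 and GRCm38 are named in the submitters' processing notes, without version or role. Positions under 10 reads are not listed, so one that is missing may still have reads. The level is C over C plus T, since 0.762 to 1.42% of positions per library sum to under 100%. Both strands of a CpG are separate positions.

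Gene spans came from a RefSeq table of GRCm38.p6, the build of the files, which gives no exons or introns, and starts and strands from the RefSeq promoter table, which held 6 of the 10 genes. Tiles of 1000 bp needed 3 positions, and gene windows 5, listed in every library of a comparison. Levels were compared by a quasi-binomial logistic model with an F test, in R 4.3.3. Its dispersion was moderated with squeezeVar of limma 3.58.1 along mean coverage and set to no less than 1, with Benjamini-Hochberg adjustment over all features. Differences are in pooled level, knockout minus control or GMP minus LSK. All 10 genes are named, each with its window, called tiles and the tile that differed most in LSK. From the lists, genes with a called tile are named, at most 5 per list by LSK difference. Other tiles given by position were chosen after their values were seen. The genes, lists, tests and the intermediate-level prior were chosen with earlier results of these data known. The tests were tested on simulated data. Alternatives changed the prior, coverage minimum, moderation, tile grid, position minimum, weighting, window size, a Y-position block or the libraries used. Reads carry no molecular identifiers, so depth speaks of counting error only.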

Additional observations from a re-analysis of the deposited data

How the results depend on the processing

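Of 124 alternative counts of called integrin tiles, windows or positions, 11 were lower than the main count, 5 were higher and the others were the same. In LSK tiles the count of 2 became 0 without moderation, where the genome also had 0, 1 to 2 with 1 library left out (1 without each control under either prior, and without 1334 with the intermediate-level prior), and 1 in the 4 libraries with few Y-chromosome positions, an alternative added after seeing the data, as was the intermediate-level prior with a library left out. Genome counts of tiles called lower ran from 382 to 1284 with 1 library left out, beside 933, and were 449 by limma on logit levels, 517 with C positions weighted equally, 531 with at least 5 positions per tile and 387 in those 4 libraries. For control GMP against LSK they ran from 257 to 916 beside 809, with 382 at 5 positions per tile, for GMP with the intermediate-level prior from 22 to 215 beside 266, and for C positions from 318 to 4195 beside 1978, with 0 when the prior was fitted on all positions and 1286 with the Y-position block. In GMP tiles the count of 0 became 1 with the intermediate-level prior, and 0 to 1 with that prior and 1 library left out, and the tile was that of Itga2b, kept only without 179. Between control cell types the count of 1 became 0 without moderation and 0 in the 3 control libraries with many Y-chromosome positions, where the genome also had 0, and stayed 1 with each library left out. At C positions the count of 0 became 0 to 2 with 1 library left out and 2 in the 4 libraries with few Y-chromosome positions. Those positions were 102466337 in Itga2b and 77558076 in Itgb2 without 1327 and in the 4 libraries, and 102466294 in Itga2b and 71813133 in Itga6 without 1333, and they were named after their values were seen. The Itga2b LSK tile lost its call in 2 of 21 alternatives: without moderation (adjusted p = 0.214), and on a grid shifted by 500 bp, where the tile also took in neighbouring positions and the difference was -15.2 points (adjusted p = 0.00952). The 2 tiles called on the shifted grid were both in Itga6. The Itga6 tile lost its call in 9 of 21 (adjusted p up to 0.232) and the Itgb2 tile in 2 of 18 (0.600 without moderation, and 0.725 as above). The cause of these changes was not tested. Differences of named tiles changed sign in 5 of 238 alternative values and those of windows in 49 of 480, none of them called in either. Each GMP group had 2 libraries at medians of 50 to 59 reads, and how far either limits the calls was not tested. With many or few Y-chromosome positions as a block, also added after seeing the data, the LSK counts stayed at 2 tiles (Itga2b adjusted p = 0.00865, Itga6 0.0234), 0 windows and 0 positions. No paired analysis was possible because the groups share no replicate number in the labels.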

Other observations

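GMP library 352, whose labels disagree about Cre, listed 0 of the 5 Dnmt3a positions that every control library listed, and 330 of 356 positions of the gene as a whole. At the Itga2b tile it stood at 22.0% (20.5% on the forward and 24.6% on the reverse strand), at the Itga6 tile at 22.1% and at the Itgb2 tile at 9.44%. At chr2:71816001-71817000 in Itga6 it stood at 43.1%, and at the Itgb3 tiles chr11:104625001-104626000 and chr11:104637001-104638000 at 28.0% and 50.7%. These 6 tiles were chosen after their values were seen. In each of them but the Itga6 one at 71812001, where library 178 had 19.7%, its level was the lowest of the 5 GMP libraries. It was also the lowest in tiles not chosen, among them chr11:102460001 in Itga2b (86.7%) and chr10:77542001 in Itgb2 (66.7%). In others it was not, among them chr7:128115001 in Itgam (96.7%, with 94.4% in 346). The share of all integrin tiles in which it was the lowest was not counted. Its gene-window levels were 34.5% for Itga2b, 71.5% for Itgb2 and 93.5% for Itgam. No group was assigned to it.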
